A study of Mus musculus with 24 samples.

Results

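Transthyretin (Ttr), the carrier of thyroid hormone and retinol-binding protein in cerebrospinal fluid, was read at very different levels in the hippocampi of this study, and the libraries were divided by that level. All 17 hippocampal libraries of the 24 in the series were used, whatever the treatment. The 5 libraries with a normalized Ttr count under 10000 formed the class low in Ttr, and the 12 libraries at 10000 or more formed the class high in Ttr. Normalized counts are reads per gene after division by a size factor that evens out library depth. The Ttr values chose the classes, so they are given as a description and were not tested between them. The remaining 7 libraries of the series are from isolated hippocampal microglia of mice given PF4, platelet factor 4, a chemokine released by platelets (n = 4), or saline (n = 3), and were used only for a description at the end.

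The hippocampi came from aged C57/Bl6 mice, male by the study's methods, that received saline (n = 5), the young blood plasma preparation, labelled Young Plasma (n = 6), or the young platelet fraction, labelled Young Platelet (n = 6). The treatments were given systemically to the recipient mice, and the mice were perfused with buffered saline before the hippocampus was subdissected. RNA was extracted with TRIzol, and poly(A) RNA of each hippocampus was sequenced. No genotype differs between the groups. Each library bears the label of a separate sample, and the labels do not say more about the animals, so the p-values measure the spread between these libraries. The markers of hippocampal neurons were present throughout: Prox1, a transcription factor of dentate granule cells, ranged from 229 to 625.4 normalized counts, Wfs1, a marker of CA1 pyramidal cells, from 731 to 3209, and Zbtb20, which marks hippocampal pyramidal and granule neurons, from 1966 to 3565.

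The choroid plexus hangs in the ventricles along the edge of the hippocampus. Its epithelium secretes cerebrospinal fluid by moving ions and water from blood to ventricle, and it is the main site of Ttr synthesis in the brain. It adjoins the ependyma, the ciliated epithelium that lines the ventricles, and rests on a stroma with vessels and fibroblasts. The labels do not say how much of these neighbouring tissues each dissected hippocampus held, and the part of dissection in the values below was not tested. In a bulk library, more cells of a type and more RNA per cell cannot be told apart.

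The class low in Ttr held 1 saline, 2 young plasma and 2 young platelet fraction libraries. Their Ttr counts were 848 in saline replicate 3, 1622 in young platelet replicate 2, 1897 in young plasma replicate 3, 5063 in young plasma replicate 6 and 5833 in young platelet replicate 1. Each treatment gave 4 of the 12 libraries high in Ttr, whose counts ran from 15480 to 54993 with a median of 23370. The last library below the threshold and the first above it, young platelet replicate 1 at 5833 and young platelet replicate 3 at 15480, were 2.65-fold apart, and the highest library was 64.8-fold above the lowest. Ttr took between 0.0112% and 0.743% of all reads counted in a library.

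Treatment did not enter the division, and the treatments overlapped in Ttr. Ttr ranged from 848 to 30495 under saline, with a median of 19359. It ranged from 1897 to 43232 with the young plasma preparation and from 1622 to 54993 with the young platelet fraction. The mean log2(Ttr + 1) was 13.43 ± 2.10 (SD, n = 5) under saline, 13.67 ± 1.75 (n = 6) with young plasma and 13.85 ± 1.96 (n = 6) with young platelets. The difference from saline was 0.24 for young plasma (two-sided exact permutation test, p = 0.814, Benjamini-Hochberg adjusted p = 0.857 over 3 pairs of groups) and 0.42 for young platelets (exact permutation p = 0.736, adjusted p = 0.857). The difference between the treated groups was 0.18 (exact permutation p = 0.857, adjusted p = 0.857). The sign of each of these differences turned when single libraries were left out, and none was larger than the spread within groups.

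**Figure D1:**
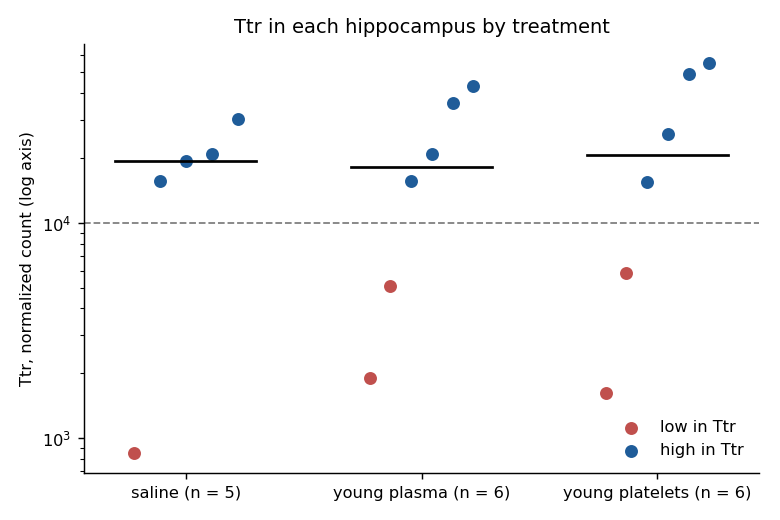
Normalized Ttr count (log axis) of each of the 17 hippocampi by treatment, with points coloured by class, a black bar at each group's median and a dashed line at 10000. Each treatment has 4 libraries above the line, and 1 saline, 2 young plasma and 2 young platelet libraries lie below it.

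Counted reads per library ran from 6140510 to 10522699, and 16203 to 16671 genes had at least 1 read. Libraries low in Ttr held 7419075 ± 737808 reads (SD, n = 5) and those high in Ttr 7335942 ± 1257856 (n = 12), a difference within the spread (two-sided exact permutation test, p = 0.835). The reads of the 140 genes named as higher in the next paragraph made up 0.136% to 0.279% of a library low in Ttr and 0.423% to 1.03% of a library high in Ttr. The first principal component of the genes outside that set held 25.7% of the variance and set 5 libraries apart. These were 3 of the 5 libraries low in Ttr, saline replicate 3, young platelet replicate 2 and young plasma replicate 3, and 2 of the 12 high in Ttr, saline replicate 2 and young plasma replicate 2. That separation and the division by Ttr thus overlap in part, while the Spearman correlation of the first component with Ttr was -0.04. The second component of the same genes held 12.2% of the variance and had a Spearman correlation of -0.77 with Ttr. The part of either component in the differences below was not tested.

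Among 13905 genes tested besides Ttr, 140 genes were higher in the libraries high in Ttr and 0 were lower at an adjusted p of 0.05 (limma on log2(normalized count + 1), Benjamini-Hochberg over all tested genes). The 140 genes are 1.01% of those tested. At an unadjusted p of 0.05, 887 genes (6.38%) were higher and 516 (3.71%) were lower, 10.1% in all. With libraries scaled to their totals without Ttr, these counts were 1072 and 312, so 77.5% of them were higher, against 63.2% with the deposited scaling. DESeq2 on the recovered reads called 204 higher and 7 lower, and edgeR called 122 higher and 1 lower. The log2 difference of the 140 genes ran from 0.44 to 3.63, with a median of 1.74 against -0.01 over all tested genes. In 71 of the 140 genes every library high in Ttr was above every library low in Ttr, which held for 79 tested genes in all (0.568%), and 2 genes (0.0144%) were separated the other way.

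The call rested unevenly on the libraries. Without saline replicate 3, the library with the least Ttr, 84 genes were called higher, and without young platelet replicate 2 there were 88. Without the 5 libraries set apart by the first component, which leaves 2 libraries low in Ttr, 11 genes were called higher and the log2 difference of the choroid plexus genes described next had a median of 1.6. The 11 genes, all among the 140, were 1500015O10Rik, Cldn2, Sult1c2, Aqp1, Col8a1, Oca2, F5, Abca4, Lmx1a, Stk33 and 1700003M02Rik. The other genes described below as called were not called in those 12 libraries. Among choroid plexus genes the limma adjusted p was 0.110 for Folr1, 0.112 for Kcnj13 and Enpp2, 0.104 for Sostdc1, 0.186 for Otx2, 0.185 for Kl, 0.229 for Clic6 and 0.424 for Slc4a5, and it was 0.0576 for Steap1 and 0.111 for Steap2. Young plasma replicate 6, young platelet replicate 6 and saline replicate 5 bear titles numbered apart from the other hippocampi, and the labels do not say whether they were prepared at another time. Without these 3 libraries 116 genes were called higher and 1 lower, and 100 of the 140 genes remained called. All 140 genes remained positive in difference in every one of these subsets, and also within saline, young plasma and young platelet libraries taken alone. Over the 17 libraries 48.4% of all tested genes had a positive difference. The 140 genes were chosen as higher in these same libraries, so their sign in subsets is largely set by that choice. The saline libraries alone hold 1 library low in Ttr. With treatment as a term, 167 genes (1.2%) were called higher and 3 (0.0216%) lower, and 136 of the 140 genes remained called.

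The genes of choroid plexus epithelium led the difference. Of 47 listed genes other than Ttr, 46 were tested, 46 had a positive difference (48.4% of all tested genes did) and 39 were called higher, with a median log2 difference of 2.13. These genes are expressed by the same epithelium as Ttr, so their count follows the way the libraries were divided and is not independent evidence of it. Folr1, the folate receptor that carries folate into cerebrospinal fluid (GRCm38, chr7:101858331-101870788), had 16.7, 37.8, 45.0, 136 and 114 normalized counts in the 5 libraries low in Ttr, in order of their Ttr. In the libraries high in Ttr it ran from 279 to 974 with a median of 450. No low library reached a high one, the means were 70.0 ± 52.0 (SD, n = 5) and 558 ± 263 (n = 12), and the log2 difference was 3.20 (SE 0.40, limma adjusted p = 0.000147).

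Ion and water transport is the central task of this epithelium. Aqp1, the water channel of its apical membrane (chr6:55336299-55348555), had 7.05, 15.3, 20.0, 23.0 and 35.4 counts in the libraries low in Ttr and 95.1 to 456 in those high in Ttr. The classes did not overlap, and the log2 difference was 3.04 (SE 0.34, limma adjusted p = 8.28e-05). Kcnj13, an inwardly rectifying potassium channel (chr1:87384577-87394729), had 50.1 to 237 counts in the low and 454 to 1729 in the high class, a log2 difference of 2.91 (SE 0.37). Slc4a5, a sodium bicarbonate cotransporter, was listed at 0 in saline replicate 3, reached 19.8 in the other low libraries, and ran from 22.8 to 203 in the high ones. Clic6, a chloride channel family member, had 14.1, 29.7, 54.0, 44.9 and 90.6 counts in the low class and 128 to 459 in the high class. Kcnj13, Slc4a5 and Clic6 were called higher and were separated between the classes, and in each of them saline replicate 3 or young platelet replicate 2 held the lowest count.

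Secreted and signalling proteins of the epithelium were called higher as well. Enpp2, which encodes autotaxin, the enzyme that makes lysophosphatidic acid (chr15:54838901-54952789), had 2365, 4537, 5149, 4931 and 7974 counts in the low class and 12230 to 39110 in the high class. The means were 4991 ± 2002 (n = 5) and 23113 ± 9538 (n = 12), and the log2 difference was 2.20 (SE 0.28, limma adjusted p = 0.000189). Kl, which encodes Klotho (chr5:150952607-150993817), had 96.0 to 349 counts in the low and 451 to 1296 in the high class. Sostdc1, an antagonist of BMP and Wnt signalling, had 30.7 to 109 counts in the low and 199 to 697 in the high class. 1500015O10Rik, which encodes the secreted protein augurin, had 35.2 to 94.7 counts against 255 to 909. All 4 genes kept the low and the high libraries apart.

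Tight junctions seal the epithelium between blood and ventricle. Cldn2, the claudin of leaky epithelia (chrX:139800808-139811386), had 15.9, 21.5, 26.0, 47.1 and 57.2 counts in the low class and 128 to 403 in the high class, and its log2 difference of 2.83 (SE 0.29, limma adjusted p = 3.55e-05) was among those with the smallest p. Cldn1, Cldn3 and Cldn9 were called as well. Without the 3 libraries numbered apart Cldn9 was not called (limma adjusted p = 0.0541). By symbol, chosen after the values were seen, 4 of the 11 tested genes starting in Cldn were higher, against 1.01% of all genes. Cldn1 and Cldn2 belong to the choroid plexus list, whose genes follow the division by Ttr. Cldn3 had at most 4.16 counts in the low class and 9.53 to 49.96 in the high class, so it passed the count minimum through the high class. Otx2, a homeodomain transcription factor that the choroid plexus needs for its development (chr14:48656781-48667644), had 5.29, 18.4, 32.0, 14.2 and 35.4 counts in the low and 51.2 to 152 in the high class, a log2 difference of 2.12 (SE 0.35, limma adjusted p = 0.00234).

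**Figure D2:**
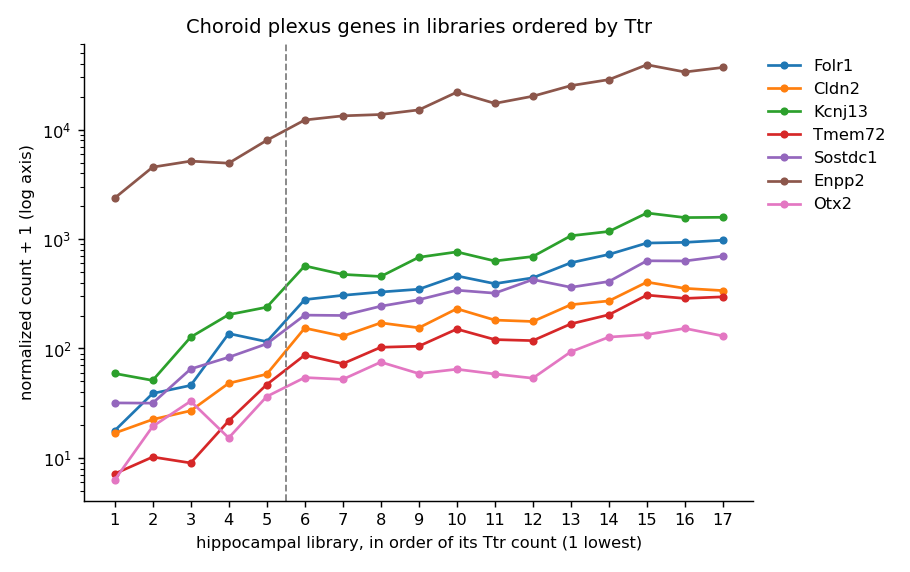
Normalized count plus 1 (log axis) of 7 choroid plexus genes in the 17 hippocampi, ordered from the lowest Ttr count (1) to the highest (17); the dashed line separates the 5 libraries low in Ttr from the 12 high in Ttr. Each gene lies lower left of the line than right of it, and Folr1 runs from 16.7 to 974.

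The promoters of the called genes were searched for TAATCC, the core letters that Otx2 and related homeodomain factors recognise, on both strands. RefSeq promoter windows of GRCm38.p6, each from 250 bases before to 50 after a start used for that gene, were matched for 104 of the 140 genes. The start used for a window need not be the outermost end of the gene. The letters occurred in 13 of these 104 genes (12.5%), against 762 of 11002 tested genes with a window (6.93%) and 7.06% of all windows. In 11 of the 13 genes a match lay wholly before the start used for its window. A match is a description of letters and not of a bound site. Stretches from 5 called genes, chosen after their matches were seen, are shown as examples of the letters in their surroundings, with the match in capitals.
Otx2, chr14:48665304-48665331, minus strand: gtgtgcccctcGGATTAtctcgttagtt
Abca4, chr3:122044391-122044418, plus strand: taattagagggGGATTAtgcttgaaggg
Ace, chr11:105967910-105967937, plus strand: gctgggttttaTAATCCgcagggcggtc
Car14, chr3:95904730-95904757, minus strand: tcctgcatgccTAATCCgctatttaagg
Pon1, chr6:5194106-5194133, minus strand: ctgagccacaaGGATTAgaactgctttg
The capitals are TAATCC read as such or as its reverse complement GGATTA. In the Ace stretch the match starts 27 bases before the start used for its window, in Abca4 58, in Car14 61, in Pon1 176 and in Otx2 211. The Otx2 stretch lies inside the span given above for that gene, so its window uses a start within the span. Ace encodes angiotensin-converting enzyme, Car14 a carbonic anhydrase, and both belong to the choroid plexus list. Pon1 encodes a paraoxonase and Abca4 a retinoid transporter. Car14 was not called without the 3 libraries numbered apart (limma adjusted p = 0.0530).

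The genes most like Ttr over the 17 libraries were chosen by Spearman correlation, as a description in libraries that share their depth scaling. Lbp, which encodes lipopolysaccharide-binding protein, had a rank correlation of 1.00 with Ttr, 1500015O10Rik 0.995, Folr1 0.990 and Clic6 0.985. Sostdc1 and Enpp2 followed at 0.983, Tmem72 at 0.978, Cldn2 at 0.975, Steap1 at 0.971 and Sulf1 at 0.968. On log2 scales, the slope on Ttr was 0.94 (SE 0.02) for Folr1, 0.97 (SE 0.04) for Tmem72, 0.79 (SE 0.03) for Cldn2 and 0.64 (SE 0.03) for Enpp2. A slope of 1 means that a gene changed by the same factor as Ttr.

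Within the 12 libraries high in Ttr, which differ from each other by their own Ttr, the slope on log2 Ttr was positive for 139 of the 140 genes and passed adjusted p 0.05 for 82 (limma). Of all tested genes, 182 (1.31%) had a positive and 17 (0.122%) a negative slope at that threshold, and 49.6% had a positive slope of any size. These 12 libraries also entered the choice of the 140 genes. The median slope of the choroid plexus genes was 0.81 in the 12 libraries and 0.62 over all 17.

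Motile cilia genes were next, with smaller differences. Of 52 listed genes of ependyma and motile cilia, 44 were tested, 42 had a positive difference, 24 were higher at an unadjusted p of 0.05 and 2, Tekt1 and Wdr63, at the adjusted p. The background is 6.38% at the unadjusted and 1.01% at the adjusted p, and the list's median log2 difference was 0.73. Tekt1, a tektin of ciliary microtubules (chr11:72344717-72362442), had 29.1, 36.8, 45.0, 19.7 and 21.9 counts in the low class and 43.4 to 151 in the high class, with a median of 65.4. The highest low library, young plasma replicate 3, lay above the 2 lowest high libraries, and the log2 difference was 1.27 (SE 0.27, limma adjusted p = 0.0246). Wdr63, an inner dynein arm protein, had 2.19 to 12.5 counts in the low and 3.25 to 44.7 in the high class, with a log2 difference of 1.92 (SE 0.45, limma adjusted p = 0.0397). Neither call was firm: that of Tekt1 was lost without saline replicate 3, young plasma replicate 6 or young platelet replicate 1 (limma adjusted p = 0.0766, 0.0777 and 0.0708), and that of Wdr63 in 12 of the 17 fits that left out a library, with an adjusted p up to 0.178. Without the 5 libraries set apart, limma adjusted p was 0.154 for Tekt1 and 0.845 for Wdr63, and without the 3 libraries numbered apart it was 0.126 and 0.184. In both of these fits 0 of the listed cilia genes were called.

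The defining markers of ependyma were higher in the mean but overlapped between classes and did not pass the adjusted p. Foxj1, the master transcription factor of motile cilia, had a median of 19.4 counts in the low and 40.5 in the high class (log2 difference 0.63, SE 0.41, limma adjusted p = 0.586). Tmem212 had medians of 12.3 and 26.9 (1.31, SE 0.45, adjusted p = 0.302), and Ccdc153 medians of 15.9 and 25.9 (1.00, SE 0.49, adjusted p = 0.499). The cilia genes Drc7, Iqub, Cfap70, Rsph9 and Spag6, which are outside the list, were among the 140 genes. By symbol starts such as Cfap, Spag or Ccdc, chosen after the values were seen, 8 of 143 tested genes were called, against 1.01% of all genes. Without the 3 libraries numbered apart, Iqub, Cfap70 and Spag6 were not called, at limma adjusted p of 0.0809, 0.194 and 0.106. Drc7, a subunit of the nexin-dynein regulatory complex, had 22.0 to 99.2 counts in the low and 178 to 591 in the high class, without overlap.

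The mean centred log2 value of a list in each library shows where the lists part. For choroid plexus genes it ran from -2.12 to -0.70 in the low class and from -0.06 to 1.38 in the high class, without overlap. For the cilia genes it ran from -0.77 to -0.13 in the low class and from -0.30 to 0.98 in the high class. In the low class, the cilia mean was lowest in saline replicate 3 at -0.77 and highest in young plasma replicate 3 at -0.13, while both young plasma replicate 6 and young platelet replicate 1, with the most Ttr of the class, lay at -0.60 and -0.73. Cilia genes and choroid plexus genes did not run in the same order within the low class.

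**Figure D3:**
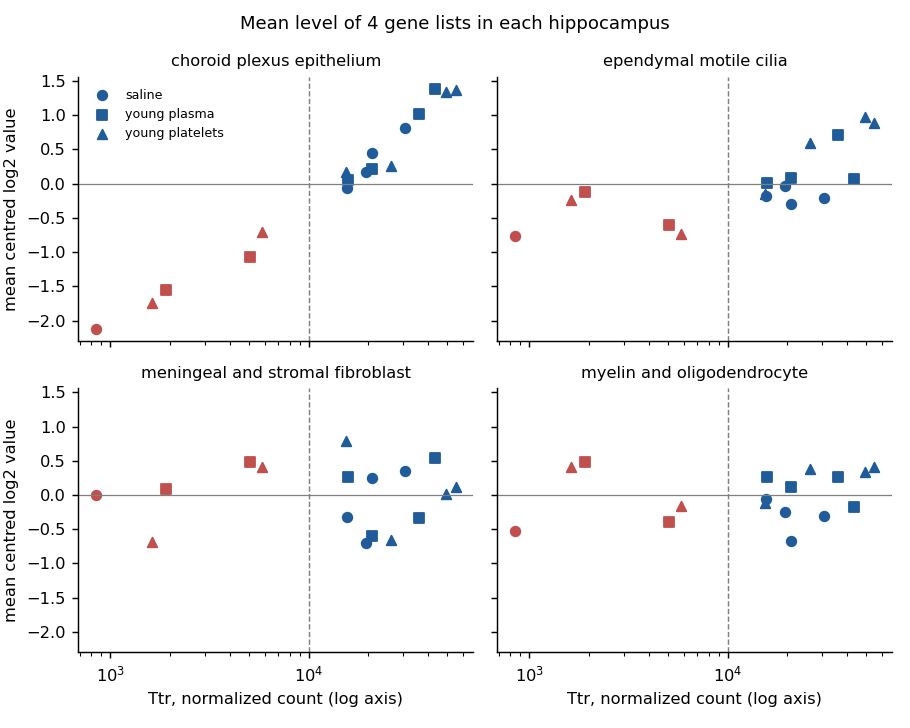
Mean centred log2 value of 4 gene lists (vertical axis, log2 units) against the normalized Ttr count (log axis) in each of the 17 hippocampi, with symbols for treatment, red for low and blue for high in Ttr and a dashed line at 10000. The choroid plexus genes run from -2.12 at the lowest Ttr count to 1.38, the cilia genes from -0.77 to 0.98 with the highest points at the right, and fibroblast and myelin genes overlap between the classes.

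The listed genes of the stroma and of the vessels were not called between the classes. This holds for the lists only. Fap, Scara5, Cd300lg and Nid2, which are in none of the lists, were called higher, and the cells they come from were not tested. Of 29 tested fibroblast genes, 11 had a positive difference, 0 passed the adjusted p, 2 were higher and 1 lower at the unadjusted p, and the median log2 difference was -0.11. The summed count of the list overlapped, at 5868 to 17597 in the low and 6346 to 26089 in the high class. Igf2, a growth factor made by leptomeninges and choroid plexus, had 156, 75.7, 221, 163 and 246 counts in the low class and 154 to 653 in the high class. The classes overlapped, and its log2 difference of 0.93 (SE 0.32) did not pass (limma adjusted p = 0.314). Col1a1, collagen of fibroblasts, had medians of 80.0 and 75.9. Among 27 tested endothelial and pericyte genes 2 were higher at the unadjusted p and 0 at the adjusted p, with a median of -0.08. As a slope on log2 Ttr over the 17 libraries, 1 gene of each of these lists passed, Igf2 at 0.30 (limma adjusted p = 0.0285) and Bsg, which encodes basigin, at 0.07 (adjusted p = 0.0474), and within the 12 high libraries Bsg passed again at 0.23 (adjusted p = 0.0211). At a Ttr threshold of 5000, where the lower class held 3 libraries all set apart by the first component, Col6a1 and Fn1 of the fibroblast list and Kdr, Abcb1a, Abcc9 and Cspg4 of the vessel list were called higher. Of 15 genes of border macrophages, the macrophages of meninges and choroid plexus, only 6 reached the count minimum and 0 were called. Of 8 red cell genes 3 were tested and 0 were called.

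The other lists had medians close to the -0.01 of all genes. Of 44 tested myelin and oligodendrocyte genes 0 were called at the adjusted p and 1 was lower at the unadjusted p, with a median of 0.06, and Mbp, which encodes myelin basic protein, ranged from 32340 to 77820 counts in the low and from 25690 to 68750 in the high class. The medians were -0.06 for 22 astrocyte genes, -0.10 for 22 microglial genes and 0.06 for 12 genes of oligodendrocyte precursors, with 0 called. Among neuronal lists, medians lay between -0.11 for 22 dentate granule cell genes and 0.08 for 21 interneuron genes. The 14 CA1 and 18 CA2 and CA3 pyramidal cell genes had medians of 0.05 and -0.04. Immediate early genes had a median of -0.09 with 0 of 20 called. At a Ttr threshold of 5000, genes of the precursor and interneuron lists were called higher, and genes of the astrocyte and myelin lists lower. At that threshold pyramidal cell genes were called in both directions.

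Lists for tissue beside the hippocampus gave 2 calls. The 18 tested thalamic genes had a median of 0.10 with 0 called, and the 22 genes of neocortex and subiculum a median of -0.03 with 0 called. Of 9 habenula genes 1 was called: Chrnb4, a nicotinic acetylcholine receptor subunit, had at most 10.4 counts in the low class and 6.94 to 44.7 in the high class (log2 difference 1.51, SE 0.36, limma adjusted p = 0.0439), while Gpr151, another habenula gene, had medians of 13.5 and 16.7. Of 12 striatal and septal genes 1 was called: Ppp1r1b, which encodes DARPP-32 (chr11:98348406-98357796), had 651, 656, 708, 540 and 650 counts in the low class and 739 to 1278 in the high class (0.52, SE 0.13, limma adjusted p = 0.0471). Of the dentate granule cell list 1 gene was called, Ahcyl2, a relative of S-adenosylhomocysteine hydrolase, with 283 to 470 counts against 464 to 794 (0.77, SE 0.13, limma adjusted p = 0.00302). The call of Chrnb4 was lost in 12 and that of Ppp1r1b in 11 of the 17 fits that left out a library, with limma adjusted p up to 0.161 and 0.136; Ahcyl2 kept its call in all of them. Without the 5 libraries set apart none of the 3 genes was called, at limma adjusted p of 0.841 for Chrnb4, 0.350 for Ppp1r1b and 0.824 for Ahcyl2. Without the 3 libraries numbered apart it was 0.109 for Chrnb4 and 0.0857 for Ppp1r1b.

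**Figure D4:**
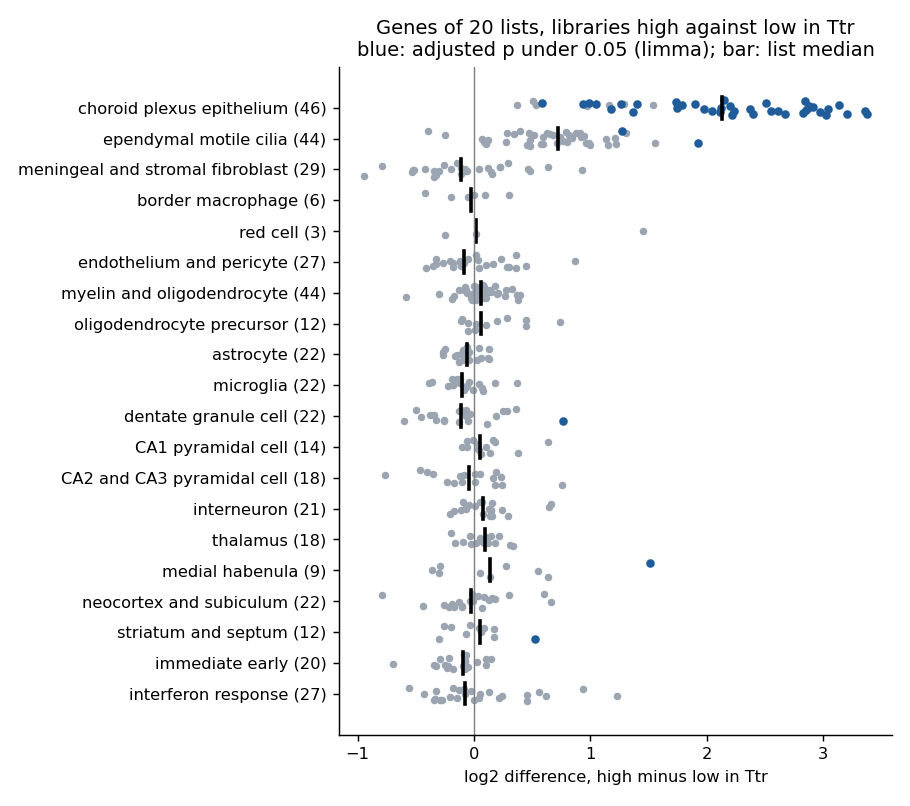
Log2 difference, high minus low in Ttr, of each tested gene of 20 lists (number tested in brackets), in blue where the limma adjusted p was under 0.05, with a black bar at each list's median. Choroid plexus genes centre on 2.13 and cilia genes on 0.73, and the other medians lie between -0.11 and 0.14.

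Interferon response genes were split. Of 27 tested genes 0 passed the adjusted p, 4 were higher and 1 lower at the unadjusted p, and the median was -0.08. Ifi27 lay just outside the threshold, with 456, 502, 746, 650 and 540 counts in the low class and 575 to 1044 in the high class (log2 difference 0.56, SE 0.14, limma adjusted p = 0.0518). It passed with TMM scaling (adjusted p = 0.0382) and with library totals without Ttr (adjusted p = 0.0329). Lgals3bp, which encodes a secreted galectin-binding glycoprotein, had medians of 425 and 643 (0.62, SE 0.19, adjusted p = 0.206). Bst2, an antiviral membrane protein, had 16.4 to 68.0 counts against 44.7 to 134, with overlap (0.94, SE 0.30, adjusted p = 0.251).

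Of the 140 genes, 96 were in none of the lists, 39 in the choroid plexus list and 5 in another list. By symbol, chosen after the values were seen, 12 of 276 tested genes starting in Slc, which are mostly solute carriers, were higher. So were 3 of 4 genes starting in Steap, 5 of 39 starting in Col, and 2 of 3 Pon paraoxonases, beside a background of 1.01%. Among these, Steap1, Col8a1, Col8a2, Col9a3, Slc4a2, Slc4a5 and Slco1a5 belong to the choroid plexus list, whose genes follow the division by Ttr. The counts by symbol are therefore set in part by that division. Pon1 had at most 4.16 counts in the low class, so it passed the count minimum through the high class. Steap1 and Steap2 had 3.07 to 32.3 and 16.4 to 51.5 counts in the low class, and 67.5 to 220.0 and 80.9 to 184 in the high class. Genes of metal transport were Slc39a4, a zinc importer, with 18.5 to 46.8 against 65.0 to 261 counts, Slc31a1, a copper importer, with 259 to 467 against 415 to 994, and Atp7a, a copper-exporting ATPase, with 52.0 to 163 against 89.3 to 230. Slc39a4 did not overlap between classes, and Slc31a1 and Atp7a did. These genes were picked after the values were seen. Without the 3 libraries numbered apart Atp7a was not called (limma adjusted p = 0.113), while Slc39a4 and Slc31a1 remained called. Sult1c2, a sulfotransferase, had at most 7.29 counts in the low class and 16.9 to 63.3 in the high class.

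Of the 140 genes, 38 had a mean under 10 counts in the low class, and in 20 every low library was under 10, so these passed the count minimum through the high class. The fold of the class means ran from 1.37 to 13.8 over the 140 genes with a median of 3.51.

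At the other end, the 10 genes with the smallest p among the lower ones did not pass the adjusted p. Zcchc5 had 93.4, 47.0, 87.0, 97.5 and 66.6 counts in the low class and 30.7 to 60.4 in the high class (log2 difference -0.75, SE 0.19, limma adjusted p = 0.0605). Pcsk5, a proprotein convertase, had 367, 353, 353, 265 and 302 counts in the low and 177 to 337 in the high class (-0.51, SE 0.13, adjusted p = 0.0626). Both passed, with Brinp1, when treatment was a term, at limma adjusted p of 0.0447 and 0.0482, and both passed with DESeq2. The others were Strada, Brinp1, Vps4a, Parvg, Itfg2, Ssrp1, Ncald and Gorab, with log2 differences from -0.48 to -0.20. The slope on log2 Ttr over 17 libraries was positive for 327 genes (2.35%) and negative for 61 (0.439%) at an adjusted p of 0.05. Rph3a, a synaptic vesicle protein, had the smallest p among the negative ones, with a slope of -0.12 (SE 0.02, limma adjusted p = 0.00126). Within the 12 high libraries the slope of Rph3a was -0.27 (limma adjusted p = 0.0179). Camk2a, the alpha subunit of calcium/calmodulin-dependent kinase II of excitatory neurons, had a slope of -0.09 (SE 0.02, adjusted p = 0.0201), with class means of 62661 in the low and 51923 in the high class, and a slope within the 12 high libraries of -0.06 (adjusted p = 0.691).

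A slope on log2 Ttr that differs between treatments was not found for any gene at the adjusted p, and 416 genes (2.99%) passed the unadjusted p of 0.05 (limma F test of the interaction). Between treatments, the comparison with saline at an unadjusted p of 0.05 called 529 genes (3.80%) for young plasma and 579 (4.16%) for young platelets, and 0 at the adjusted p in each. With log2 Ttr as a term the counts were 562 (4.04%), of which 503 were shared with the fit without it, and 592 (4.26%). Of the 140 genes, 0 were among the calls of either treatment without the term, and 2 were among those for young plasma and 6 among those for young platelets with it. Both comparisons use the same saline libraries.

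The 7 microglia libraries, which the division of the hippocampi did not use, also differed in Ttr. Ttr was 641 to 884 normalized counts in 4 of them and 197501, 345809 and 501960 in saline replicate 2, PF4 replicate 4 and PF4 replicate 2. Of the 140 genes, 85 were measured there, and in 52 of these (61.2%) all 3 libraries with high Ttr were above the other 4, against 5.32% of the 11319 genes measured there. The slope on log2 Ttr was positive in 74 of the 85 (87.1%), against 47.5% of all genes, with a median of 0.64 against -0.01. Many of the 52 genes, such as Drc7, Tekt1, Kl and Aqp1, stayed under the count minimum in all 4 libraries low in Ttr. They could be measured there only through the 3 libraries high in Ttr. For these genes the order of the libraries and the positive slope were largely set by that minimum. The 61.2% and the 87.1% are therefore not independent evidence of a shared pattern. Folr1 had 8.37 to 19.7 counts in the 4 libraries and 3292 to 6362 in the 3, Drc7 0.761 to 7.41 and 768 to 3903, and Tekt1 at most 8.37 and 150 to 384. Ltc4s, which makes leukotriene C4, had 4071 to 5813 and 4608 to 5589 counts, so it overlapped. Its slope was 0.01. The 3 libraries come from both treatments, and these values are a description without a test.

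**Figure D5:**
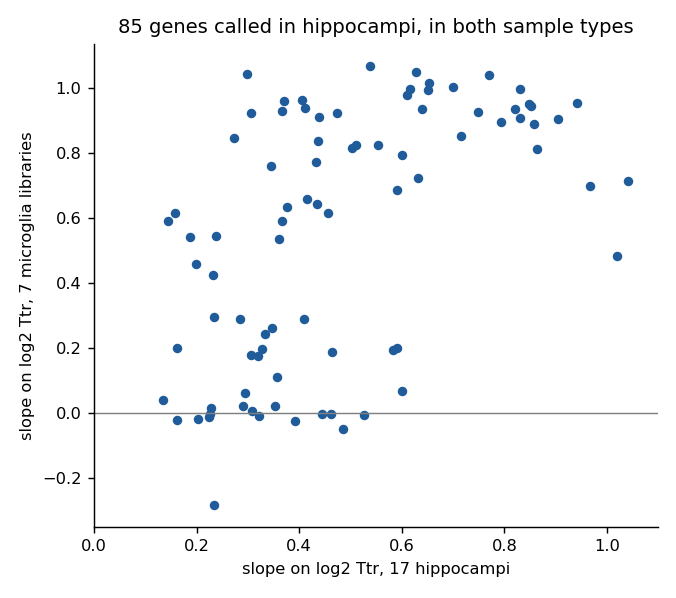
Slope of log2 count on log2 Ttr over the 17 hippocampi (horizontal axis) and over the 7 microglia libraries (vertical axis) for each of the 85 genes called in hippocampi and measured in microglia. 74 points lie above 0 on the vertical axis, and a group of genes lies close to 0 there.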

How the data were processed

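Poly(A) RNA of whole hippocampi and of isolated microglia was sequenced. Per the labels, the authors used STAR, RSEM and DESeq2 with the mm10 build. The labels name a strand-specific kit, and the study's methods a modified Smart-Seq2 protocol. The deposited signal per library is a normalized count, and whole reads were recovered for 100% of values within 0.01 of a read. The deposited columns of fold changes and p-values of the authors' own comparisons were not used. Both hippocampal tables were put on a common scale by their shared saline libraries (factor 0.995).

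The main test was limma (3.58.1, R 4.3.3, variance trend) on log2 values with a pseudocount of 1, high minus low in Ttr, for genes that reached 10 normalized counts in 5 libraries. Ttr was left out of the tests. edgeR 4.0.16 and DESeq2 1.42.0 on recovered reads were alternatives, with other scalings, filters, thresholds and left-out libraries. The fits were tested on simulated data. Ttr and depth were compared by exact permutation tests, two-sided. Reads carry no molecular identifiers. Paralogs and overlapping genes can share reads, so their values are uncertain.

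The members, the gene lists and the tests were chosen with earlier results of these data known. Named genes are Ttr, up to 3 genes with the smallest p per list, in each direction the 10 genes of smallest p with a mean count of at least 50, the 10 genes most like Ttr and the defining markers; others were named after their values were seen, and some genes are not reported here. Coordinates are RefSeq, GRCm38.p6.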

Additional observations from a re-analysis of the deposited data

Results flagged for a closer look

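In 134 groups of 5 or 6 libraries, 3 had a library far from the others by Dixon's test at the 95% level, where chance gives about 1 in 20. In the class low in Ttr, Hba-a2, an alpha globin, had 48.1 counts in young platelet replicate 2 and was listed at 0 in the other 4 libraries. In the libraries high in Ttr, Hba-a2 ran from 0 to 94.1 counts. The mean centred log2 value of the red cell list was 1.41 in young platelet replicate 2 and -0.87 to -0.48 in the other low libraries. That list has 3 tested genes, Hba-a2 among them, so both flags rest in part on the same counts. Cux1, a transcription factor, had 308 counts in young platelet replicate 1 and 372 to 389 in the other low libraries. Hba-a2 and Hba-a1 share near-identical sequence, so reads may be split between them.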

How the results depend on the processing

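The count of 140 higher genes was 133 to 152 under other pseudocounts, no filter on low values and other scalings, 122 with edgeR, 204 with DESeq2 and 167 with treatment as a term. It was 81 with a filter at 50 counts, 1047 at a Ttr threshold of 5000, 327 as a slope on log2 Ttr, 11 without the 5 libraries set apart, 29 in saline libraries alone, and 0 in young plasma or young platelet libraries alone, where 409 and 666 genes were higher at an unadjusted p of 0.05. Leaving out single libraries gave 84 to 155. The 0 lower genes became 1 with a pseudocount of 5, with edgeR and without the 3 libraries numbered apart (116 higher), 2 without a filter, 7 with DESeq2, 3 with treatment as a term, 361 at the Ttr threshold of 5000, 15 at 20000, 61 as a slope and 17 as a slope within the 12 high libraries, an alternative chosen after seeing the data, and 0 to 4 without single libraries. Choroid plexus genes called higher were 7 without the 5 libraries, 18 in saline and 0 in each treatment alone. Cilia genes higher at the unadjusted p were 3 with the filter at 50, 9 at the threshold of 5000, 10 in saline and 4 in young plasma libraries alone. With the Ttr classes as a term the young platelet comparison called 905 genes at the unadjusted p. Ttr differences between treatments changed sign without single libraries, from -0.68 to 0.80 for young plasma, -0.51 to 1.06 for young platelets and -0.38 to 0.82 between them. The depth difference was 13249 reads at the threshold of 20000. The causes of these changes were not tested, except that fewer genes are tested with a stricter filter and fewer libraries with subsets. In 20 of the 140 genes every low library was under 10 counts, where counting error limits precision. No paired analysis was possible because the replicate numbers of hippocampi only name the samples, and the microglia groups, whose titles share numbers, were not compared.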

Other observations

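Of the 140 genes higher in the libraries high in Ttr, 108 were called at a Ttr threshold of 5000 and 67 at 20000. At the threshold of 5000, the 3 libraries in the lower class were all among those set apart by the first principal component, and 1047 genes were called higher and 361 lower.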
